A study of Mus musculus with 9 samples.

Results

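The genes described here are 10 mouse genes of which normally only the copy inherited from the father is expressed: Nnat, Peg3, Usp29, Mest, Snrpn, Ndn, Peg10, Sgce, Plagl1 and Impact. They were taken as a named set, 10 of 52609 genes in the annotation, and all 10 passed the filter on low counts. Their levels were followed by RNA sequencing of polyadenylated RNA in 4 lines labelled as mouse epiblast stem cells, which are pluripotent cells cultured from the epiblast of the early embryo. Medium of all 4 lines held FGF2 (10 ng/mL) and Activin A (20 ng/mL), and the cells grew on gelatin with inactivated mouse embryonic fibroblasts as feeders. The control line (2 libraries) had no inhibitor, the DKK1 KO line (3 libraries) is described as lacking Dkk1, a secreted Wnt antagonist, the Wnt-inhibited line (2 libraries, called IWP2 here) was kept with IWP2 at 5 µM, which blocks Wnt secretion through the acyltransferase Porcupine, and the last line (2 libraries, called IWP2-removed here) had IWP2 withdrawn after derivation. Each group is 1 line, so a difference between groups is a difference between lines. The labels do not say whether replicates were separate cultures, and p-values then measure only the spread between these libraries. SB431542 is in the treatment protocol, but no group is labelled with it.

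Most imprinted genes are expressed from 1 parental copy because DNA methylation laid down in the germ line at control regions differs between the maternal and paternal chromosomes. After fertilisation these marks are kept by zinc finger proteins such as ZFP57 and ZFP445 with the cofactor TRIM28 and the maintenance methyltransferase DNMT1. Many paternally expressed genes act on fetal and placental growth or in the brain, and they lie in clusters that also hold maternally expressed genes. The reads do not tell parental copies apart, so the values below are total levels of both copies.

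The libraries labelled Dkk1 KO stood apart from all others. Dkk1 itself was at 6.76 and 8.94 CPM (reads per gene relative to the library total, with TMM factors for library composition) in control and at 0.70, 0.83 and 1.13 CPM in Dkk1 KO. It was also low in the IWP2 line, at 2.89 and 0.35 CPM, and at 3.44 and 5.83 CPM in IWP2-removed. The Dkk1 KO libraries did not carry the markers of their labelled cell type: Pou5f1, the defining factor of pluripotent cells, was at 1.14 to 1.70 CPM against 442 and 472 CPM in control, and 7 of 10 epiblast markers were called lower, where 23.0% of all genes were. Of the other 3, Utf1 was called higher, at 154 to 175 CPM against 9.87 and 6.77 CPM, and Sox2 overlapped control. All 10 trophoblast markers were called higher, where 21.3% of all genes were, and Elf5, a factor of trophoblast stem cells, was at 303 to 312 CPM against 0.18 and 0.19 CPM in control. Across 12107 genes the 3 Dkk1 KO libraries correlated with each other at 0.995 to 0.996 and with the rest at 0.622 to 0.693. The spread within Dkk1 KO was small, with a median SD of 0.0577 in log2 CPM against 0.161 to 0.292 in the other groups. Comparisons with Dkk1 KO are therefore comparisons of libraries with trophoblast marker expression against libraries with epiblast marker expression. All 9 libraries shared 1 estimate of the spread, so calls in the other lines are also given without Dkk1 KO. Depth was 10849490 to 17892751 estimated reads per library.

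Members differed widely in level. In TPM, which divides reads by transcript length and so allows levels to be compared between genes, Mest led in control at 230 ± 138 (SD, n = 2). Plagl1 (56.3 ± 17.6), Peg3 (51.1 ± 14.0), Snrpn (50.1 ± 3.9), Peg10 (34.0 ± 20.1), Sgce (22.1 ± 2.0), Impact (19.1 ± 8.1), Nnat (17.8 ± 10.3) and Ndn (15.0 ± 0.65) followed, and each overlapped the next in its libraries. Usp29 was the lowest at 4.55 ± 0.12 TPM. The order changed with the line. In Dkk1 KO, Peg10 led at 98.5 ± 2.1 TPM (n = 3) and Nnat, at 0.45 ± 0.10 TPM, shared the bottom with Usp29 and Plagl1, whose libraries overlapped. In IWP2, Nnat stood level with Mest at the top, at 252 ± 159 and 252 ± 150 TPM (n = 2), and in IWP2-removed Nnat was second at 101 ± 20.9 TPM behind Mest at 224 ± 47.8 TPM, without overlap.

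**Figure D1:**
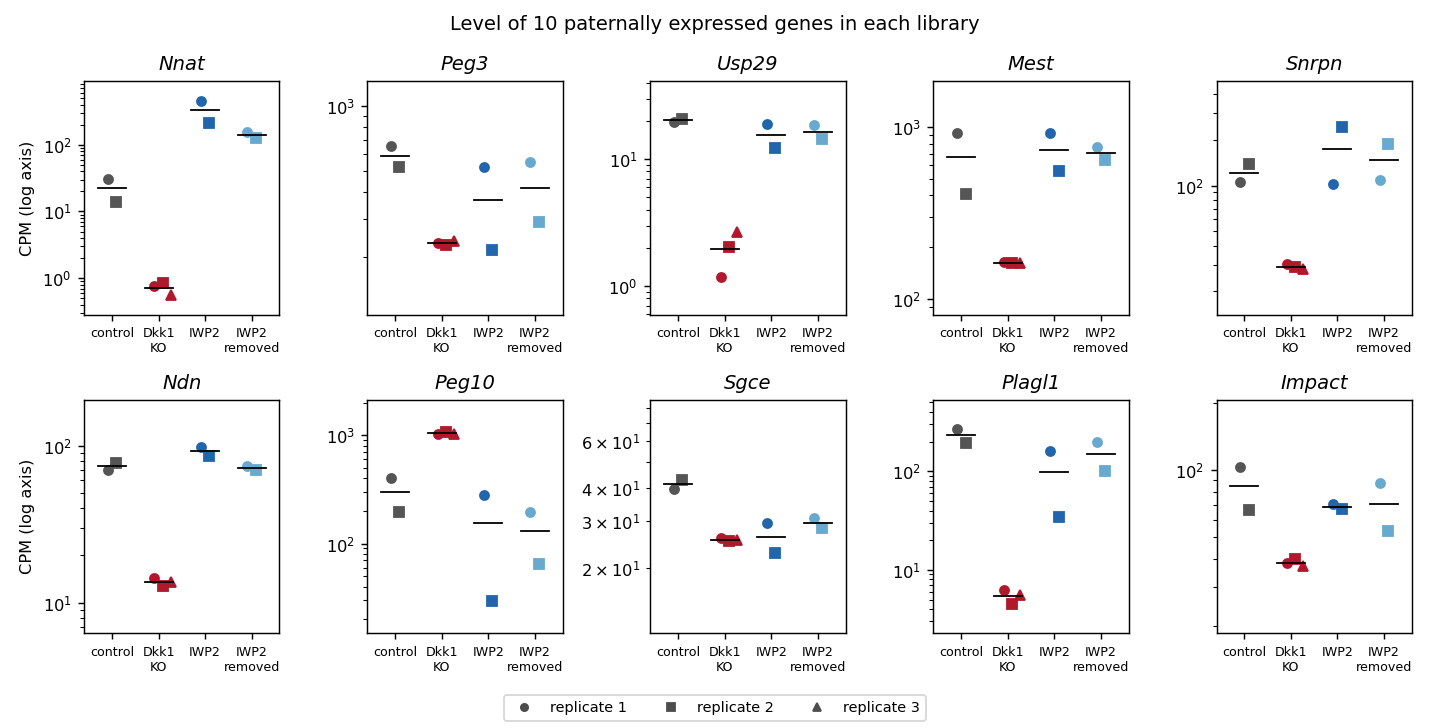
CPM on the TMM scale (log axis) of the 10 genes in each of the 9 libraries, by line; symbols mark the replicate number and black bars the group mean. The 3 Dkk1 KO libraries lie below both control libraries for every gene except Peg10, and Nnat is the only gene far above control in IWP2 and IWP2-removed, at 449.6 and 210.7 CPM and at 153.4 and 124.5 CPM.

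Nnat (ENSMUSG00000067786.16, chr2:157560078-157562522, plus strand, GRCm38) encodes neuronatin, a small proteolipid of the endoplasmic reticulum that is abundant in developing brain. The gene lies within an intron of Blcap, which is read from the opposite strand, and no exon of Blcap overlaps it. Its promoter window of 250 bases before and 50 bases after the start, from RefSeq on GRCm38.p6, is shown because Nnat was the only member called against control in all 3 other lines. Capitals mark the letters TGCCGC, which ZFP57 is known to bind when methylated, and CCATNTT, the core of the YY1 motif, on either strand, so that TGCCGC may appear as its reverse complement.
Nnat chr2:157559828-157560127 plus strand: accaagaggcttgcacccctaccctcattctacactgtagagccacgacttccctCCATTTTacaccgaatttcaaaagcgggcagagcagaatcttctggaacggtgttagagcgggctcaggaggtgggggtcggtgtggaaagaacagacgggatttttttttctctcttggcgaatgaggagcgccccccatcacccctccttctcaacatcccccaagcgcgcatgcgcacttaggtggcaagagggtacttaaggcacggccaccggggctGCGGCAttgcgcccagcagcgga
This window held 17 CpG dinucleotides, against a median of 7 over 32851 windows of the table, with 1 match to each motif. As many CpG or more were found in 31.4% of those windows. Of all those windows 11.6% held the ZFP57 letters and 16.1% the YY1 letters. A match describes the sequence and is not evidence of binding.

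Nnat was at 30.4 and 13.8 CPM in the control libraries. In Dkk1 KO it was at 0.77, 0.83 and 0.57 CPM, resting on 11, 11 and 8 reads. In IWP2 it was at 449.6 and 210.7 CPM, and in IWP2-removed at 153.4 and 124.5 CPM. The 4 groups did not overlap: Dkk1 KO was lowest, then control, IWP2-removed and IWP2. The mean in Dkk1 KO was 3.27% of the control mean, a log2 fold change of -4.91 ± 0.50 (SE), with an adjusted p of 0.000116 in edgeR's quasi-likelihood test. In IWP2 the mean was 14.9-fold that of control (log2 3.91 ± 0.45, adjusted p = 0.00615), and in IWP2-removed 6.29-fold (log2 2.66 ± 0.43, adjusted p = 0.0312). Between IWP2-removed and IWP2 the ratio of means was 0.421 and both libraries of the first lay below both of the second, but the difference did not pass the test (log2 -1.25 ± 0.40, adjusted p = 0.324).

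The 2 calls above control were not equally firm. Without the Dkk1 KO libraries the log2 differences were 3.90 ± 0.52 for IWP2 and 2.66 ± 0.49 for IWP2-removed, and both lost the call in edgeR's test (adjusted p = 0.078 and 0.242). In the same 6 libraries with the replicate number as a block, both were called (adjusted p = 0.00342 and 0.0072). Over 23 alternative settings the IWP2 difference was called in 19, with adjusted p from 3.14e-21 to 0.116, and without control replicate 2 it had an adjusted p of 0.0507. The IWP2-removed difference was called in 11 of 23 (adjusted p from 3.47e-14 to 0.242). It lost the call in edgeR's test when any control, Dkk1 KO or IWP2-removed library was left out, with adjusted p from 0.0628 to 0.159. The log2 difference stayed between 3.26 and 4.58 for IWP2 and between 2.20 and 3.31 for IWP2-removed.

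One transcript carried most of the Nnat signal. Nnat-202, a protein-coding form starting at position 157560110, made up 83.1% of the gene's TPM in control, 75.2% in IWP2 and 81.7% in IWP2-removed. It was at 22.9 and 6.61 TPM in control, at 275 and 104 TPM in IWP2 and at 92.0 and 73.5 TPM in IWP2-removed. Blcap, the gene around Nnat, did not show the same pattern: its mean was 50.2 ± 1.6 CPM in control and 44.1 ± 2.2 CPM in IWP2 (log2 -0.19 ± 0.15, adjusted p = 0.603). In Dkk1 KO Blcap was at 28.0 ± 0.29 CPM and was called lower (log2 -0.84 ± 0.13, adjusted p = 0.00124).

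As a sum, neural markers were lower than control in Dkk1 KO and above it in IWP2, as Nnat was. In IWP2-removed the sum overlapped control, unlike Nnat. The summed level of 10 neural markers was 350 and 475 CPM in control, 72.2 to 74.1 CPM in Dkk1 KO, 888 and 766 CPM in IWP2 and 408 and 556 CPM in IWP2-removed. Of these 10, 9 were called lower in Dkk1 KO, where 23.0% of all genes were. The other, Sox3, had a positive log2 fold change there, with 278, 233 and 272 reads against 110 and 244 in control. In IWP2 9 of the 10 had a positive log2 fold change and 1 a negative one, with a median of 1.08. Much of the rise of the sum lay in Tubb3 (174 and 930 reads in control, 2597 and 3796 in IWP2), Map2 and Dcx. Sox1 had 1336 and 1201 reads in IWP2 against 795 and 1518 in control. Of the 10, 1 was called higher in IWP2, where 1.27% of all genes were, and none was called in IWP2-removed. The gene called in IWP2 was Dcx, which encodes doublecortin, a microtubule protein of migrating young neurons (log2 3.35 ± 0.40, adjusted p = 0.00649, and 0.0561 without the Dkk1 KO libraries). Neurog2, a neurogenic factor, had no read in Dkk1 KO, but only 1 and 10 reads in control. In bulk RNA, a change in the number of cells with these markers and a change in RNA per cell cannot be told apart. The part of such cells in the Nnat values was not tested.

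Dcx was also the gene nearest to Nnat in pattern. Likeness was measured as the root mean square difference of log2 CPM, each gene centred on its own mean, over 9 libraries and 12106 other genes that averaged 5 CPM or more, where the median difference was 3.52. Dcx lay at 0.631, Nhlh2 at 0.882, Pcdha4 at 0.883, Ina at 0.908 and Palmd at 0.935. Dcx was at 12.5 and 13.7 CPM in control, 0 to 0.23 CPM in Dkk1 KO, 182 and 85.8 CPM in IWP2 and 54.0 and 41.2 CPM in IWP2-removed. Ina, which encodes the neuronal intermediate filament internexin, was at 22.1 and 14.7 CPM in control, 0.38 to 0.64 CPM in Dkk1 KO, 75.3 and 65.3 CPM in IWP2 and 34.9 and 56.5 CPM in IWP2-removed. Nhlh2, a neuronal basic helix-loop-helix factor, reached 18.49 and 19.01 CPM in IWP2 against 2.22 and 3.91 CPM in control. Pcdha4 was at 28.7 and 21.8 CPM in IWP2 against 6.22 and 6.58 CPM in control, and Palmd at 35.4 and 25.2 against 5.42 and 4.16 CPM. The 5 genes were picked by their likeness over these same libraries, so their shared pattern follows from the choice. A shared function with Nnat was not tested.

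**Figure D2:**
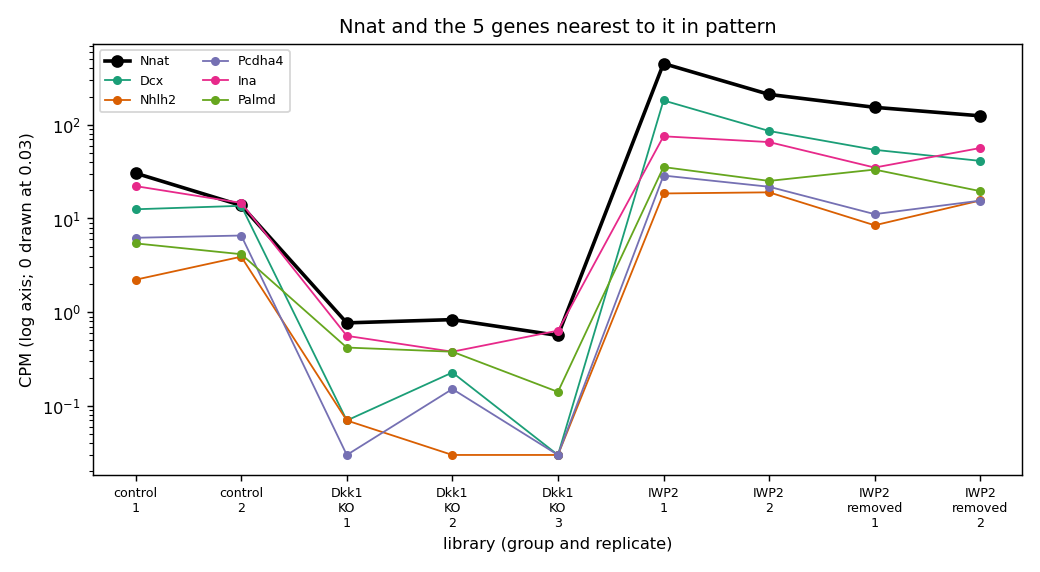
CPM (log axis) of Nnat and the 5 genes with the smallest centred log2 difference from it, by library; a value of 0 is drawn at 0.03. All 6 lines run lowest in the 3 Dkk1 KO libraries and highest in an IWP2 library, with Nnat at 449.6 CPM and Dcx at 182 CPM in IWP2 replicate 1. The 5 genes were picked by this difference, so their shared course with Nnat follows from the choice.

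Peg3 (ENSMUSG00000002265.16, chr7:6703892-6730431, minus strand) encodes a zinc finger transcription factor, and Usp29 (ENSMUSG00000051527.11, chr7:6730578-6967219, plus strand) belongs to the ubiquitin-specific proteases. Their annotated gene starts lie 147 bases apart and are read in opposite directions. The RefSeq window of Peg3 is shown, and 263 of its 300 bases are also in the window of Usp29. The Peg3 window held 13 CpG and no match to either motif, so no letter is in capitals.
Peg3 chr7:6730370-6730669 minus strand: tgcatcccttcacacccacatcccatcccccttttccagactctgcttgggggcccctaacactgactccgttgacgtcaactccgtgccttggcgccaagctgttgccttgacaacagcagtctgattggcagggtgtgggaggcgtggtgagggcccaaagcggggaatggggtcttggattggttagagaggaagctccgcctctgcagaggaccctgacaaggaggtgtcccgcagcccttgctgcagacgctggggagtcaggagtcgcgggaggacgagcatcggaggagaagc

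In Dkk1 KO the 2 genes fell by different amounts. Peg3 was at 654 and 523 CPM in control and at 234, 229 and 237 CPM in Dkk1 KO, 39.6% of the control mean (log2 -1.34 ± 0.36, adjusted p = 0.0166). Usp29 was at 19.7 and 20.6 CPM in control and at 1.19, 2.05 and 2.69 CPM in Dkk1 KO, 9.78% of the control mean (log2 -3.35 ± 0.33, adjusted p = 9.1e-05). Both genes had all Dkk1 KO libraries below both control libraries, and the difference between the 2 fold changes was not tested. Peg3 was not called without control replicate 1 (adjusted p = 0.101) or without any 1 of the 3 Dkk1 KO libraries (adjusted p = 0.0501 to 0.0534), in edgeR's test. In IWP2, Peg3 was at 522 and 217 CPM and Usp29 at 18.9 and 12.2 CPM. In IWP2-removed they were at 550 and 290 CPM and at 18.5 and 14.3 CPM. None of these 4 differences from control passed the test, with adjusted p from 0.471 to 0.842. The main Usp29 form was Usp29-205, annotated as a processed transcript without a coding sequence, with 56.6% of the gene's TPM in control and 66.3% in IWP2. Its start at position 6730945 lies outside the window shown above, so most of the Usp29 signal is not assigned to a start in that window. Salmon, which made the values, divides reads among 9 Usp29 transcripts by estimate, and 8 of them reached 5% in at least 1 group.

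Snrpn (ENSMUSG00000102252.5, chr7:59982495-60140219, minus strand), which encodes the spliceosomal core protein SmN, and Ndn (ENSMUSG00000033585.5, chr7:62346569-62350262, plus strand), which encodes necdin, a MAGE family protein of neurons, belong to the cluster known from Prader-Willi syndrome. Their annotated gene starts are 2206350 bases apart. Snrpn-201, which made up 98.7% of the TPM of Snrpn in control, starts farther from Ndn, at position 60005111. Snrpn was at 105 and 138 CPM in control and at 30.4, 29.2 and 28.1 CPM in Dkk1 KO (log2 -2.06 ± 0.35, adjusted p = 0.00185). Ndn was at 70.0 and 77.6 CPM in control and at 14.4, 12.7 and 13.6 CPM in Dkk1 KO (log2 -2.44 ± 0.12, adjusted p = 3e-06). Ndn had the smallest adjusted p of the 10 genes, and its libraries were close together within each group.

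Neither gene was called in the lines without Dkk1 KO. Snrpn was at 102 and 245 CPM in IWP2 and at 109 and 188 CPM in IWP2-removed, overlapping control in both. Ndn was at 98.4 and 86.5 CPM in IWP2, above both control libraries (log2 0.32 ± 0.13, adjusted p = 0.251), and at 74.6 and 70.1 CPM in IWP2-removed, overlapping control. Snurf, which shares transcribed sequence with Snrpn, followed it: its log2 fold change in Dkk1 KO was -2.06 ± 0.30 (adjusted p = 0.000793). Reads common to Snrpn and Snurf were divided by estimate, so the 2 genes are not independent measurements. Magel2, a MAGE family gene whose start lies 30441 bases from that of Ndn, fell to 0.28 to 0.61 CPM from 6.22 and 8.75 CPM in control (log2 -4.17 ± 0.39, adjusted p = 6.89e-05).

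Mest (ENSMUSG00000051855.15, chr6:30723547-30748465, plus strand) encodes a protein with the fold of alpha/beta hydrolases and is widely expressed in embryonic mesoderm. Transcripts from 2 starts, 4544 bases apart, each made up a large share of its TPM, and their RefSeq windows are shown to compare them. Capitals mark the ZFP57 letters on either strand, and there was no YY1 match.
Mest upstream start chr6:30733256-30733555 plus strand: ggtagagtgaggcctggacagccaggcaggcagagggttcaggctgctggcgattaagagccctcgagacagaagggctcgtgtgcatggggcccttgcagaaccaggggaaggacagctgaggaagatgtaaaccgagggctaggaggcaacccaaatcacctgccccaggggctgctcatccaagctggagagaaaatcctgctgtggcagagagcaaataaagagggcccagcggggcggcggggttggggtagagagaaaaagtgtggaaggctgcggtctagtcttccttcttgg
Mest downstream start chr6:30737800-30738099 plus strand: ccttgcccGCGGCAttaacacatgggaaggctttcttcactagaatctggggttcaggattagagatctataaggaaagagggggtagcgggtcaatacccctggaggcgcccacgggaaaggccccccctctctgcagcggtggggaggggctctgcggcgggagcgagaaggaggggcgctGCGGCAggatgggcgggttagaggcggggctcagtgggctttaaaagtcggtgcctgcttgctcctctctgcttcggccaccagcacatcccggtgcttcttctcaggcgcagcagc
The upstream window held 8 CpG and no match, and the downstream window held 17 CpG and 2 matches to the ZFP57 letters.

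Mest was at 923 and 407 CPM in control and at 163, 162 and 161 CPM in Dkk1 KO, 24.4% of the control mean (log2 -2.03 ± 0.33, adjusted p = 0.00135). Dkk1 KO lay below both control libraries, which themselves differed by more than the Dkk1 KO libraries did. Both starts were lower in Dkk1 KO. Mest-210, from the upstream start, was at 159 and 43.4 TPM in control and 21.4, 11.9 and 13.2 TPM in Dkk1 KO, and Mest-211, from the downstream start, at 146 and 67.7 TPM and at 20.9, 28.7 and 28.1 TPM. In IWP2 the gene was at 925 and 552 CPM and in IWP2-removed at 767 and 640 CPM, overlapping control, with log2 differences of 0.15 ± 0.36 and 0.08 ± 0.36 (adjusted p = 0.893 and 0.979). Of 7 mesoderm markers tested, 2 were called lower in Dkk1 KO, where 23.0% of all genes were, and none higher. The 2 were T (from 103 and 53.2 CPM to 2.43 to 3.32 CPM) and Meox1 (from 12.98 and 5.52 CPM to 0.07 to 0.15 CPM). Of the 7, 4 had a positive log2 fold change, and the median was 0.03. Mesp1 and Msgn1 had at most 2 reads in any control or Dkk1 KO library. The part of mesoderm cells in the Mest values was not tested.

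Peg10 (ENSMUSG00000092035.8, chr6:4747306-4760517, plus strand) derives from a retrotransposon and is required for the placenta, and Sgce (ENSMUSG00000004631.15, chr6:4674350-4747207, minus strand) encodes epsilon-sarcoglycan, a membrane protein linked to the dystrophin complex. Their annotated gene starts are 99 bases apart and read in opposite directions. Peg10 was at 400 and 194 CPM in control and at 1037, 1071 and 1033 CPM in Dkk1 KO. It was the only one of the 10 genes with all Dkk1 KO libraries above control, at 353% of the control mean, and this difference did not pass the test (log2 1.82 ± 0.84, adjusted p = 0.112). It was called in 6 of 21 alternative settings, among them the fit of these 2 groups alone (log2 1.81 ± 0.29, adjusted p = 0.00214). The summed trophoblast markers were at 2080 to 2089 CPM in the same Dkk1 KO libraries and at 87.9 and 30.0 CPM in control, and their part in the Peg10 values was not tested.

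Sgce went the other way from the same promoter region. It was at 39.6 and 42.9 CPM in control and at 25.8, 25.2 and 25.4 CPM in Dkk1 KO, 61.9% of the control mean, and was called lower (log2 -0.69 ± 0.14, adjusted p = 0.00431). In IWP2 it was at 29.4 and 22.7 CPM and in IWP2-removed at 30.9 and 28.3 CPM, below both control libraries in both lines, without passing the test (log2 -0.66 ± 0.16 and -0.48 ± 0.16, adjusted p = 0.0727 and 0.241). The DESeq2 Wald test called Sgce lower in IWP2 (adjusted p = 0.0169). Peg10 in these lines depended on the library: 280 and 29.6 CPM in IWP2, and 195.5 and 65.2 CPM in IWP2-removed, with log2 differences from control of -0.94 ± 0.87 and -1.19 ± 0.87 (adjusted p = 0.667 and 0.71).

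Plagl1 (ENSMUSG00000019817.18, chr10:13060504-13131694, plus strand) encodes a zinc finger transcription factor that can halt the cell cycle and is known to regulate other imprinted genes. The RefSeq window of its main start is shown because Plagl1 had the largest fold decrease of the members in Dkk1 KO. Capitals mark the ZFP57 letters, with 1 match beside 26 CpG, the highest CpG count among the windows printed here.
Plagl1 chr10:13090582-13090881 plus strand: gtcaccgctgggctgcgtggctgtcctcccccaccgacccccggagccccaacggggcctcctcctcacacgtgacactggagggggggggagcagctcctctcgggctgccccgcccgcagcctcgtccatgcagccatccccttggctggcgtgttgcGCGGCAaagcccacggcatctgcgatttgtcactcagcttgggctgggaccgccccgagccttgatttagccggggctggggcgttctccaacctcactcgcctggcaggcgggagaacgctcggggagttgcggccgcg
Plagl1-202, whose start at position 13090788 lies in this window, made up 54.9% of the gene's TPM in control and 79.9% in Dkk1 KO.

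Plagl1 was at 267 and 195 CPM in control and at 6.30, 4.55 and 5.51 CPM in Dkk1 KO, 2.36% of the control mean (log2 -5.40 ± 0.62, adjusted p = 0.000215). In IWP2 it was at 160 and 34.5 CPM, both below control (log2 -1.25 ± 0.60, adjusted p = 0.356). In IWP2-removed it was at 196 and 101 CPM, overlapping control (log2 -0.64 ± 0.59, adjusted p = 0.795). The log2 ratio between the 2 IWP2 libraries was 2.22, larger than the log2 difference from control.

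Impact (ENSMUSG00000024423.6, chr18:12955852-12992950, plus strand) encodes an inhibitor of the stress kinase GCN2. It was at 104 and 66.3 CPM in control and at 38.3, 39.8 and 37.0 CPM in Dkk1 KO, and was called lower (log2 -1.15 ± 0.23, adjusted p = 0.00449). It was at 70.3 and 66.6 CPM in IWP2 and at 87.7 and 53.1 CPM in IWP2-removed, overlapping control in both lines (adjusted p = 0.623 and 0.804).

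Set side by side, 9 of the 10 genes were called lower in Dkk1 KO and none higher, where 44.3% of all 18096 genes tested were called, 23.0% lower. The median log2 fold change of the 10 was -2.05, against -0.03 over all genes. In IWP2, 1 of 10 was called higher (Nnat) and none lower, where 2.19% of all genes were called, 1.27% higher and 0.917% lower, and the median was -0.34 against 0.01. In IWP2-removed, again 1 of 10 was called higher (Nnat), where 1.25% of all genes were called, 0.669% higher and 0.586% lower, and the median was -0.29 against 0.00. None of the 10 was called between IWP2-removed and IWP2 in edgeR's test, where 0.0608% of all genes were called (0.0387% higher and 0.0221% lower), and Nnat and Ndn had an unadjusted p below 0.05 (0.0136 and 0.0231). DESeq2 also called none of them there, and without IWP2 replicate 1 edgeR called Plagl1 higher in IWP2-removed (adjusted p = 0.0489). Without the Dkk1 KO libraries edgeR called none of the 10 in these last 3 comparisons, with adjusted p from 0.078 to 0.963 in IWP2, 0.242 to 1 in IWP2-removed and 0.911 to 1 between them, and over all 17214 genes 6 were called higher and 6 lower in IWP2. At an unadjusted p below 0.05 were then Nnat in all 3 (0.000158, 0.00113 and 0.0323) and Sgce in IWP2 (0.0175). With the replicate block in these 6 libraries Nnat was called in the first 2. The 3 comparisons with control share its 2 libraries, so they are not independent of each other.

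With the 3 Dkk1 KO libraries averaged to 1, 4 genes were still called lower there: Nnat, Usp29, Ndn and Plagl1, with adjusted p from 0.00252 to 0.0213. The other 5 called genes then had adjusted p from 0.0607 to 0.2. Feeder cell markers were also lower in Dkk1 KO, at a sum of 1794 to 1831 CPM against 3007 and 4024 CPM in control. Of these 12 markers 8 were called lower, where 23.0% of all genes were. The part of feeder cells in the values of the 10 genes was not tested.

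**Figure D3:**
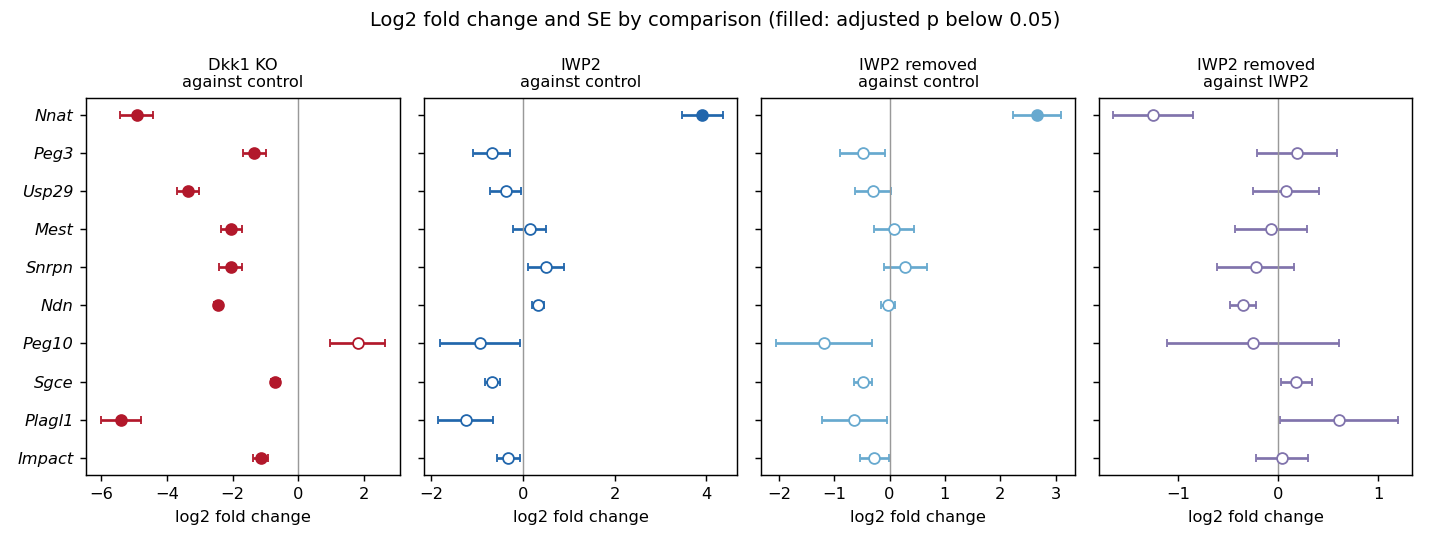
Log2 fold change (points) with its SE (bars) for the 10 genes in 4 comparisons, from edgeR's quasi-likelihood model over 9 libraries; filled points have an adjusted p below 0.05. In Dkk1 KO 9 points are filled and to the left of 0, while Nnat is the only filled point in IWP2 (3.91) and IWP2-removed (2.66), and none is filled in the last panel.

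Replicates of the lines other than Dkk1 KO differed strongly for some members, and in the same direction in each line. Nnat, Peg3, Mest, Peg10, Plagl1 and Impact were higher in replicate 1 than in replicate 2 in control, IWP2 and IWP2-removed, which is 6 of 10 genes, and Snrpn was higher in replicate 2 in all 3. Of 12107 genes averaging 5 CPM or more, 24.6% were higher in replicate 1 in all 3 lines and 31.1% in replicate 2. Peg10 had the largest such difference of the 10 genes in IWP2 and IWP2-removed, but not in control, where Mest (1.18) and Nnat (1.14) were above it. Its log2 ratio was 1.04 in control, 3.25 in IWP2 and 1.59 in IWP2-removed. Plagl1 had ratios of 0.45, 2.22 and 0.96, and Snrpn of -0.40, -1.26 and -0.78. The summed levels of mesoderm and endoderm markers were also higher in replicate 1 in all 3 lines, with log2 ratios of 0.90 to 1.81 and 0.26 to 2.30. The same held for the trophoblast sum (0.68 to 1.55), but through 1 gene, Eomes, which was at 72.3 and 12.1 CPM in control: the other 9 trophoblast markers summed to 15.6 and 17.9 CPM in control, 7.33 and 8.12 CPM in IWP2 and 10.9 and 14.2 CPM in IWP2-removed, each time higher in replicate 2. The mesoderm sum lay mostly in T and Meox1 (2448 and 715 reads in IWP2 replicate 1), and the endoderm sum in Foxa2 and Cer1 (600 and 295 reads there). Some markers of both sums went the other way. Sox17 had 30 and 57 reads in control and 21 and 50 in IWP2-removed, and Tbx6 had 6 and 16 in control. The summed epiblast markers had log2 ratios of 0.118 in control, -1.085 in IWP2 and -0.035 in IWP2-removed. Among them, Pou5f1 was at 332 CPM in IWP2 replicate 1 and 1111 CPM in replicate 2. Fgf5 went the other way there, with 822 and 255 reads, and also had more reads in replicate 1 in control (922 and 401) and IWP2-removed (603 and 259). The part of cells with any of these markers in the replicate difference was not tested.

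For the IWP2 comparison this spread decided several calls. Without IWP2 replicate 1, Peg3 (log2 -1.45, adjusted p = 0.0369), Peg10 (log2 -3.33, adjusted p = 0.0278), Sgce (log2 -0.87, adjusted p = 0.0118) and Plagl1 (log2 -2.75, adjusted p = 0.0112) were called lower than control in edgeR's test. With 1 IWP2 library left, the spread came from the other groups alone, and calls rose over all genes too: 1147 higher and 1285 lower of 18653, against 230 and 166 of 18096 with both libraries. Without IWP2 replicate 2 none of these 4 was called, with log2 differences of -0.18, -0.09, -0.49 and -0.53. Nnat was called higher either way.

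**Figure D4:**
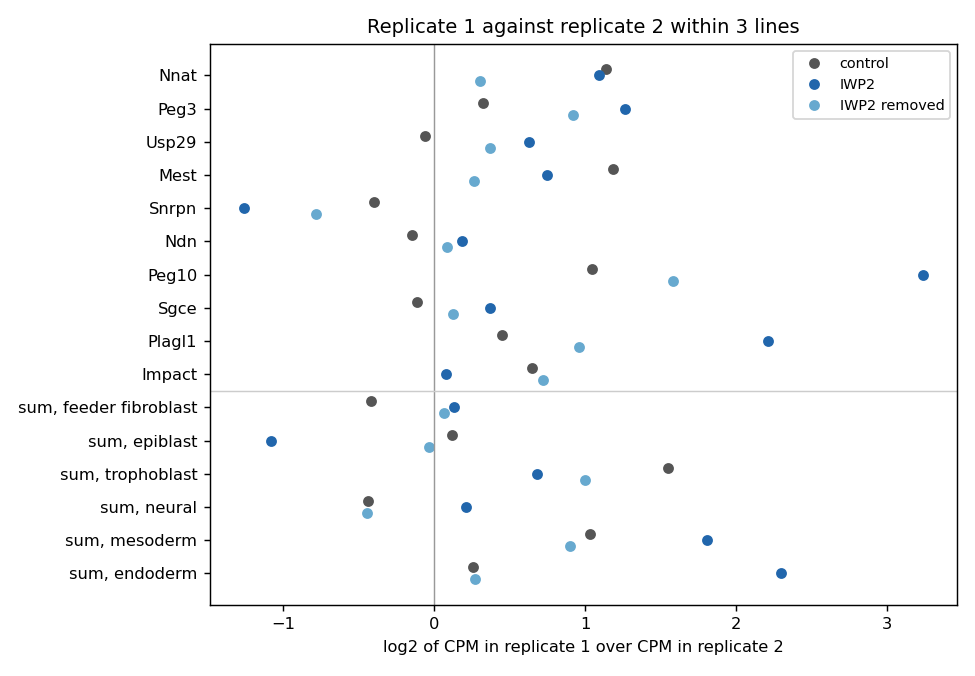
Log2 ratio of CPM in replicate 1 over replicate 2 within the control, IWP2 and IWP2-removed lines, for the 10 genes (above the grey line) and for summed cell type markers (below it). Of the 10 genes, Peg10 and Plagl1 lie farthest to the right in IWP2, at 3.25 and 2.22, and Snrpn is the only one to the left of 0 in all 3 lines. The endoderm sum lies at 2.30 in IWP2.

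Other imprinted genes give the setting of these values. Of 19 other paternally expressed genes 16 were tested, with a median log2 fold change of -1.0 in Dkk1 KO. There 10 were called lower and 4 higher, where 23.0% and 21.3% of all genes were. Zdbf2 (log2 -3.91 ± 0.25, adjusted p = 1.09e-05), Peg13 (-3.29 ± 0.24, adjusted p = 1.94e-05) and Peg12 (-1.97 ± 0.17, adjusted p = 5.16e-05) fell. Sfmbt2, a Polycomb gene needed in trophoblast, rose from 8.98 and 12.0 CPM in control to 666 to 678 CPM (log2 5.99 ± 0.19, adjusted p = 8.05e-07). The summed level of the 19 genes was higher in Dkk1 KO, unlike their median, at 7976 to 8223 CPM against 1620 and 2082 CPM in control. Most of this sum was Igf2, with 91329 to 101469 reads in Dkk1 KO and 13133 and 26257 in control. None of these 16 genes was called in IWP2 in edgeR's test. In IWP2-removed 1 was, the growth factor gene Igf2, which was lower (log2 -1.25 ± 0.23, adjusted p = 0.0441) but kept this call in 7 of 23 alternatives.

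Of 21 maternally expressed genes 20 were tested, with a median of -0.13 in Dkk1 KO. There 7 were called lower and 5 higher, where 23.0% and 21.3% of all genes were. The noncoding RNAs of 1 cluster, Meg3 (log2 -2.88 ± 0.15, adjusted p = 4.57e-06), Rian (-3.57 ± 0.13, adjusted p = 1.11e-06) and Mirg (-2.61 ± 0.19, adjusted p = 2.08e-05), all fell. Asb4, near Peg10 and Sgce, fell from 59.75 and 49.96 CPM to 0 to 0.53 CPM (log2 -7.53 ± 0.85, adjusted p = 0.000201). In IWP2, Meg3 (log2 0.84 ± 0.16, adjusted p = 0.0422) and Mirg (1.13 ± 0.20, adjusted p = 0.0308) were called higher, and H19 (-2.41 ± 0.32, adjusted p = 0.0123) and Zim1 (-2.03 ± 0.35, adjusted p = 0.0288) lower. Zim1 lies beside Peg3. Over 23 alternatives H19 was called in 19, Meg3 in 13, Zim1 in 12 and Mirg in 11. None of the 20 was called in IWP2-removed.

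Of 24 genes around the members, some of them also in the lists above, 22 were tested. In Dkk1 KO 14 were called lower and 1 higher, where 23.0% and 21.3% of all genes were, with a median of -0.88. In IWP2 Zim1 and Pon2 (log2 -1.05 ± 0.21, adjusted p = 0.0418) were called lower. Of 17 genes that set or maintain imprints 16 were tested. In Dkk1 KO 7 were called lower and 2 higher, where 23.0% and 21.3% of all genes were. The de novo methyltransferase Dnmt3a fell from a mean of 177.5 to 51.6 CPM (log2 -1.78 ± 0.17, adjusted p = 9.07e-05), while Dnmt3b rose (log2 1.73 ± 0.23, adjusted p = 0.000433). Dnmt3l, a cofactor of both, rose from 0.24 to 89.9 CPM (log2 8.61 ± 0.30, adjusted p = 1.11e-06). Zfp445 fell (log2 -0.76 ± 0.11, adjusted p = 0.000856). In IWP2, Zfp57 was called higher, from 55.7 ± 4.9 to 92.9 ± 3.0 CPM (log2 0.74 ± 0.11, adjusted p = 0.0208), a call kept in 11 of 23 alternatives. In IWP2-removed the histone methyltransferase gene Setdb1 was called higher (log2 1.0 ± 0.14, adjusted p = 0.0199), also in 11 of 23. Without the Dkk1 KO libraries none of the calls of these lists named for IWP2 (H19, Meg3, Mirg, Zim1, Pon2 and Zfp57) or IWP2-removed (Igf2 and Setdb1) passed edgeR's test, with adjusted p from 0.13 to 0.333.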

How the data were processed

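RNA was sequenced in 9 libraries (TruSeq Stranded mRNA, per the labels' protocols). The authors deposited, per transcript, estimated counts, which need not be whole, and TPM, made with Salmon per the submitters' processing notes. Which transcriptome build it used was not given in the sources used here. Transcripts were matched to GENCODE vM21 genes (GRCm38): 133399 of 133618 matched, and the 219 others held 0.117% to 0.161% of reads.

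Estimated counts were summed per gene and rounded, TPM were summed per gene. Counts were fitted with edgeR 4.0.16 in R 4.3.3 (quasi-likelihood, a mean per group over 9 libraries, TMM, filterByExpr, 18096 genes tested). Adjusted p are Benjamini-Hochberg over all genes tested, called below 0.05. CPM are on the TMM scale. SD are over libraries, SE from the model. Alternatives were DESeq2 1.42.0 and upper-quartile scaling, the DESeq2 Wald test, other filters, a length offset, limma-trend (limma 3.58.1), fits of 2 groups, replicate blocks, Dkk1 KO averaged, the 6 other libraries alone (added with a block after seeing the data) and each library left out.

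The fit was also run on simulated counts with known changes. Their spread between libraries was set smaller than in these data (common dispersion 0.0524), so that run does not show how sure the calls here are. Members and lists were chosen with earlier results of these data known. Named genes are all members, Blcap, Snurf, up to 4 called genes per list and comparison with the smallest adjusted p, and the 5 genes nearest to Nnat. Pou5f1, Elf5, Dcx and Dkk1 are named as checks of the labels. Promoter windows from RefSeq (GRCm38.p6) matched 7 of the 10 members.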

Additional observations from a re-analysis of the deposited data

How the results depend on the processing

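The number of members called changed with some settings. In Dkk1 KO 1 was called higher (Peg10) with no filter on low counts, with the replicate block, with a block by the letter in the file names and in the fit of 2 groups, and 4 were called lower with Dkk1 KO averaged to 1. In IWP2 0 were called higher in the 6 libraries without Dkk1 KO, with Dkk1 KO averaged and in the fit of 2 groups, and 1 was called lower with no filter (Plagl1) and in the DESeq2 Wald test (Sgce). In IWP2-removed 0 were called higher with limma-trend at a pseudocount of 1 or 0.1, in the 6 libraries, with Dkk1 KO averaged and in the fit of 2 groups. Between IWP2-removed and IWP2 1 was called lower with no filter (Nnat, adjusted p = 0.000515).

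Leaving out each library gave 0 to 1 members called higher and 8 to 9 lower in Dkk1 KO, 0 to 1 higher and 0 to 4 lower in IWP2, 0 to 1 higher and 0 lower in IWP2-removed, and 0 to 1 higher and 0 lower between IWP2-removed and IWP2. Signs that turned were all of uncalled differences. Against control, the log2 differences over these fits ran from -0.58 to 0.04 (Impact), -0.30 to 0.86 (Mest), -0.26 to 0.99 (Snrpn) and -0.04 to 0.64 (Snurf) in IWP2. In IWP2-removed they ran from -0.68 to 0.06 (Impact), -0.39 to 0.77 (Mest), -0.12 to 0.05 (Ndn), -0.16 to 0.62 (Snrpn) and -0.13 to 0.64 (Snurf). Between IWP2-removed and IWP2 they ran from -0.32 to 0.07 (Blcap), -0.38 to 0.36 (Impact), -0.39 to 0.35 (Mest), -1.27 to 2.14 (Peg10), -0.37 to 0.96 (Peg3), -0.10 to 2.11 (Plagl1), -0.72 to 0.55 (Snrpn), -0.49 to 0.35 (Snurf) and -0.20 to 0.43 (Usp29). In that comparison Peg10 also turned to 0.04 with either block, 0.16 in the 6 libraries with the block, and 0.22 and 0.32 with limma-trend, and Impact to -0.00 with the block by letter and -0.01 in the 6 libraries with the block. The cause was not tested.

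The labels do not say what a replicate number marks. Deviations from the group mean correlated at 0.43 to 0.661 between same-numbered libraries of control, IWP2 and IWP2-removed and at -0.044 to -0.104 with those of Dkk1 KO. Numbers 1 and 2 carry the file letters B and C in the first 3 lines, but A and B in Dkk1 KO. The correlation by letter was not taken, so these values do not tell whether Dkk1 KO shares the replicate difference. With the replicate block Nnat had log2 3.91 in IWP2 (adjusted p = 0.00192) and 2.76 in IWP2-removed (adjusted p = 0.00734), and 190 and 155 genes were called higher and lower in IWP2, against 230 and 166 without it.

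Counts over all genes moved by more than 1.5 times. In IWP2, higher and lower calls were 685 and 535 with no filter, 641 and 415 in DESeq2, 80 and 88 with the length offset, 6 and 6 in the 6 libraries and 0 and 1 in the fit of 2 groups. In Dkk1 KO they were 1355 and 1370 with its libraries averaged, against 3856 and 4161. Limma-trend moved the median of all genes in Dkk1 KO to -0.14 and -0.21. In Dkk1 KO few reads lie behind Nnat (8 to 11 per library), Magel2 (4 to 8) and Asb4 (0 to 7).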
